A study of Caenorhabditis elegans with 2 samples.

Results

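The 10 genes described here are zip-1, zip-2, zip-3, zip-4, zip-5, zip-7, zip-8, zip-9, zip-10 and zip-11 of Caenorhabditis elegans, out of 19985 protein-coding genes. They are a list of zip genes of the bZIP family taken by name. zip-6 and zip-12 also bear the name and held no peak of the irreproducible discovery rate (IDR) list. Both are counted with the other bZIP genes instead. The list of 10 genes was drawn up with earlier results of these data known. The data are ChIP-seq peak lists for FOS-1, itself a bZIP factor, from whole first-stage (L1) larvae of both sexes, with age unknown. Both samples came from strain OP304, which carries the unc-119(ed3) mutation on chromosome III and the integrated transgene wgIs304 with eGFP-tagged fos-1; the antibody is labelled only as fos-1. The 2 samples are biological replicates of 1 group, so there is no second condition to compare. The animals are whole larvae with all their tissues, so binding in few cells and weak binding in many cells cannot be told apart.

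Proteins of the bZIP family hold a basic region that contacts DNA and a leucine zipper that pairs it with itself or with another bZIP protein. Fos proteins are known to need such a partner. Several zip genes of the worm are known from stress and defence. ZIP-2 turns on defence genes when Pseudomonas aeruginosa blocks translation, and ZIP-1 acts in the response to intracellular pathogens. ZIP-3 holds back the mitochondrial unfolded protein response driven by ATFS-1. ZIP-4 has been linked with ZIP-2, CEBP-1 and CEBP-2 to a response to mitochondrial damage. ZIP-10 promotes death after cold shock, and ZIP-11 is needed for resistance to P. aeruginosa.

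The sites at which this description turns are shown first. Each line gives 101 bases centred on a summit, read 5′ to 3′ on the strand of the zip gene from WBcel235 (the assembly called ce11). Capitals mark a match to the repeat GAGAGAG on either strand, and a line without capitals held none of the 8 motifs searched. The first 3 are the peaks in introns of zip-2 (chrIII:833833-833933, plus strand) and zip-1 (chrIII:12335586-12335686, plus strand) and upstream of zip-9 (chrV:10940658-10940758, plus strand). The others are a strong peak just past the 3′ end of zip-7 (chrIV:16502021-16502121, minus strand) and, for contrast, a zip-3 intron entry listed strongly in replicate 2 alone (chrII:13954416-13954516, minus strand).
zip-2 intronic peak: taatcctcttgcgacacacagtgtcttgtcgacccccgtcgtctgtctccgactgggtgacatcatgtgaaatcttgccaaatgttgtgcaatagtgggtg
zip-9 upstream peak: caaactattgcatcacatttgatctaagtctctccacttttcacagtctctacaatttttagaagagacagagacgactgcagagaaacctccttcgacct
zip-1 intronic peak: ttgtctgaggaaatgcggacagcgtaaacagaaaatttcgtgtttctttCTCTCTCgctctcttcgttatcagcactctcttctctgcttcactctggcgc
zip-7 peak beyond the gene: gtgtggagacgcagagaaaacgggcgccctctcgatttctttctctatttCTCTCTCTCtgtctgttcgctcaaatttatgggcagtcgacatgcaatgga
zip-3 intronic entry outside the IDR list: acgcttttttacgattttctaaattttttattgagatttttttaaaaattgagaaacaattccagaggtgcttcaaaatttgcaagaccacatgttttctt

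These stretches differed in base composition. GC content was 50.5% at zip-2, 46.5% at zip-1, 40.6% at zip-9 and 48.5% past zip-7. Over the 1895 peaks of the IDR list the median was 45.5%, with quartiles of 40.6% and 51.5%. The zip-3 stretch, which is not an IDR peak, had 26.7% GC. It does not stand for the other zip entries outside the IDR list, which varied. Examples are 29.7% at zip-5 (rank 5065), 39.6% at zip-5 (rank 2725) and 44.6% at zip-10 (rank 11894). The AP-1 letters TGACTCA, the site of Fos-Jun dimers, were within 50 bp of none of the 6 IDR summits in zip windows, and 3.80% of all IDR summits had them. GAGAGAG lay within 50 bp of 2 of the 6 summits, at zip-1 and zip-11, and of 16.2% of all IDR summits. At zip-1 its centre was 2 bp from the summit and at zip-11 it was 19 bp away. The other motifs searched on both strands were TCACTGA (a scrambled AP-1 site), TGACGTCA, TTGCGCAA, TTACGTAA, CACGTG and GGGCGG. None of these was at a zip IDR summit. Of all 1895 IDR summits, 27, 18, 13, 0, 72 and 91 held them, in that order. All 6 were thus rare at IDR summits, and their absence does not set the zip peaks apart.

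A gene's window ran from 2 kb upstream of its annotated 5′ end to its 3′ end, and an entry was counted when its summit fell inside. The pooled list holds strong and weak entries made from the alignments of both replicates together. A weak entry of 1 replicate need not appear in it. The authors' IDR list held the pooled entries at ranks 1 to 1895. Membership thus followed pooled signal, and an IDR peak need not rank alike in both replicates. Signal is the authors' own value for an entry and its scaling is not stated. Rank 1 is the entry of highest signal in a list. The pooled list held 20363 entries, that of replicate 1 29801 and that of replicate 2 23483. Read depth is unknown, so a gene without an entry is described as not listed.

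Of the 10 zip genes, 5 held an IDR summit: zip-1, zip-2, zip-4, zip-9 and zip-11. This is 50% of the genes (95% Clopper-Pearson interval 18.7 to 81.3%, counting error only). The genes were not a random draw, so the interval does not test them against other genes. zip-6 and zip-12, which held none, are not in this count. Across all protein-coding genes the same window held an IDR summit in 11.3%. The 5 genes held 6 peaks, since zip-4 had a pair, and 0.941% of all genes had 2 or more. With a window of 1000 bp upstream to 200 bp downstream of the 5′ end, 2 genes (zip-4 and zip-11) held one, against 7.65% of all genes. In the full window zip-3, zip-5, zip-7, zip-8 and zip-10 had none. The share varied with window length: 9.52% of genes with windows up to 3000 bp, 8.17% of those over 3000 and up to 4000 bp, and 21.0% of those over 10000 bp. Among windows over 4000 and up to 5000 bp, 3 of 5 zip genes had an IDR summit (zip-2, zip-4 and zip-9, not zip-7 or zip-8), against 9.68% of 3687 genes of that length. The longest zip window, 13640 bp at zip-1, held one. The windows of zip-3 (7554 bp) and zip-5 (7283 bp) did not. Of 1721 genes with windows over 7000 and up to 10000 bp, 16.5% held one.

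**Figure D1:**
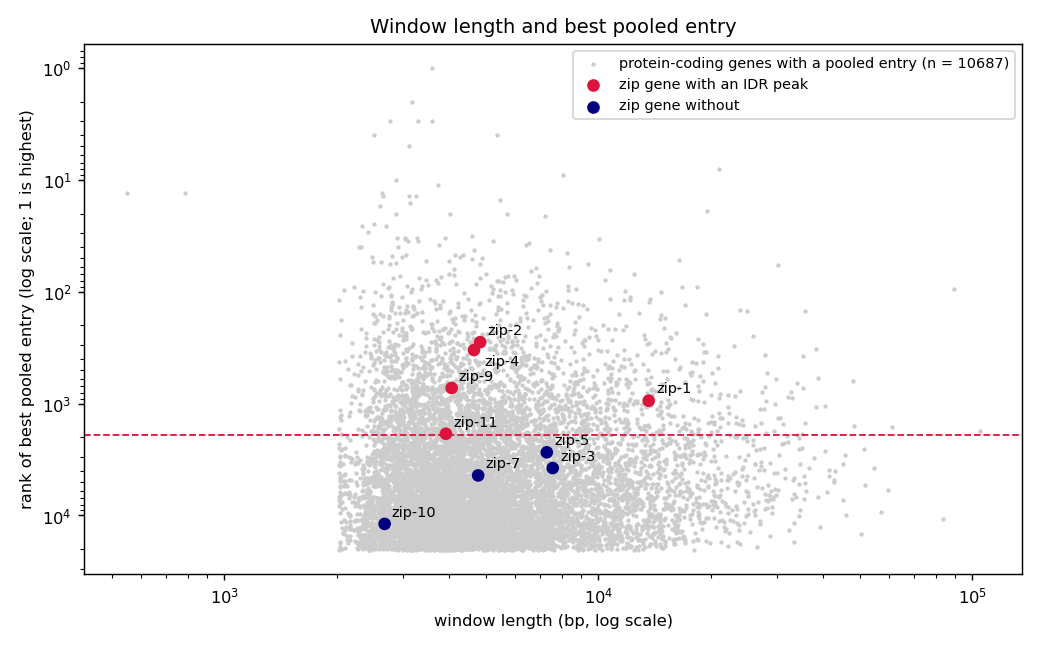
Window length in bp (x, log scale) against the rank of the best pooled entry (y, log scale, 1 at the top) for the 10687 protein-coding genes with a pooled entry (grey) and for 9 zip genes (red with an IDR peak, blue without). The dashed line is rank 1895, the last of the IDR list, and zip-2 and zip-4 lie highest among the zip genes.

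Peaks of the zip genes lay inside the genes more than upstream of them. An IDR summit fell in the gene body of 4 zip genes, zip-1, zip-2, zip-4 and zip-11, against 2.17% of all genes. In the 2 kb upstream only zip-9 had one, against 9.51% of all genes. Of the 6 summits, 3 were in introns, 2 in 5′ UTRs and 1 was intergenic. Placement used protein-coding genes only, here and below, and the intergenic summit, at zip-9, lay inside the ncRNA gene F17C11.21. Over the whole IDR list, 19.3% of summits were in introns, 4.06% in 5′ UTRs and 73.7% intergenic.

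The 3 intronic peaks each lay a short way upstream of an annotated internal start of a coding transcript of the same gene. At zip-1 the summit was 1891 bp past the gene's 5′ end and 7 bp before the start of transcript Y75B8A.35b.3. At zip-2 it was 901 bp past the 5′ end and 205 bp before the start of K02F3.4.1. At zip-4 the summit of the inner peak was 698 bp past the 5′ end and 207 bp before the start shared by Y44E3B.1a.2 and Y44E3B.1b.2. Annotated starts in worms often mark trans-splice sites, so they need not be the places where transcription begins. Across the IDR list, 49 of 366 intronic summits (13.4%) lay within 250 bp of a transcript start while farther than that from the gene's own 5′ end. Among pooled entries outside the IDR list the share was 6.80% of 6281 intronic summits. Both shares count summits on either side of a start and include genes with a single annotated start. zip-1, zip-2 and zip-4 have 5, 3 and 4 distinct starts, so the shares are not of like genes. The distance of 250 bp was chosen after the values at the zip genes were seen.

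**Figure D2:**
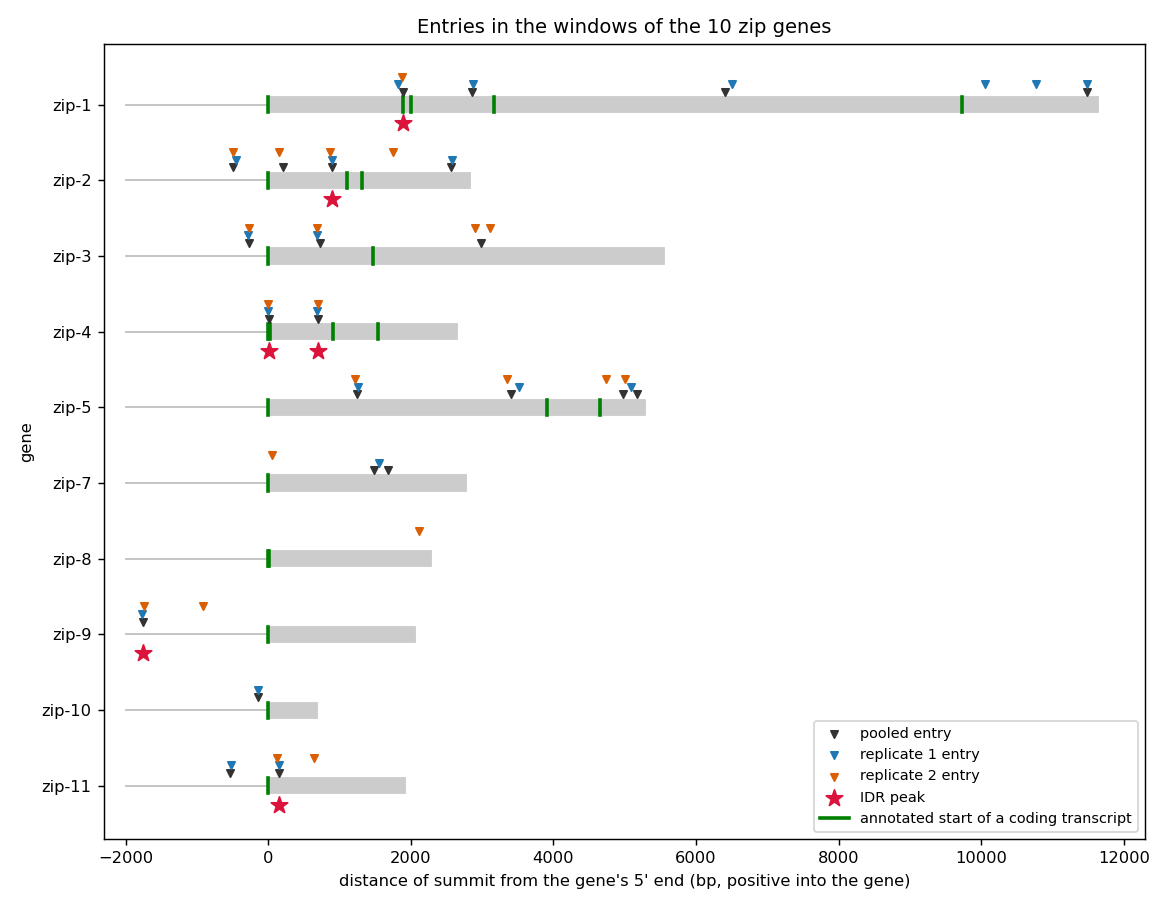
Summits of pooled (black), replicate 1 (blue) and replicate 2 (orange) entries and of IDR peaks (stars) along each zip gene, as distance in bp from the gene's 5′ end, with gene bodies as grey bars and annotated starts of coding transcripts in green. The starred summits at 1891 bp in zip-1, 901 bp in zip-2 and 698 bp in zip-4 sit just before an internal start.

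zip-2 had the zip peak of highest signal in the pooled list and in replicate 1, and zip-4 that in replicate 2. The entry (chrIII:833713-834052) had a signal of 116 in the pooled list, at rank 282. It had 77.03 in replicate 1, at rank 256, and 38.2 in replicate 2, at rank 397. The replicate summits were 2 bp and 33 bp from the pooled one. By its best pooled entry zip-2 ranked 379 among all genes. The site also lies in the upstream window of ceeh-1, an epoxide hydrolase gene on the other strand whose 5′ end is 1606 bp away. A snoRNA gene, K02F3.15, ends before the entry begins, and its own 5′ end is 448 bp from the summit.

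zip-4 carried a pair of peaks, both listed in each replicate. The outer one (chrI:3266586-3266925) had a signal of 107 at rank 332, with rank 343 in replicate 1 and 295 in replicate 2. Its summit was in the 5′ UTR, 6 bp inside the gene. The same summit was 338 bp upstream of nol-58, which encodes a nucleolar protein of box C/D snoRNPs and is transcribed away from zip-4. The inner peak (chrI:3265894-3266233) had a signal of 90.4 at rank 469, with ranks 528 and 562. Its summit was 1030 bp from the 5′ end of nol-58, so both peaks fell in the windows of both genes. No other entry of the pooled or replicate lists had its summit in the zip-4 window.

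zip-9 was listed by a site far from its own start. The entry (chrV:10940538-10940877) had a signal of 72.9 at rank 725, with rank 909 in replicate 1 and 590 in replicate 2. Its summit was 1753 bp upstream of zip-9. A closer protein-coding 5′ end, 742 bp away, belongs to F17C11.26, which overlaps zip-9 on the same strand. The entry also overlaps the ncRNA gene F17C11.21 and the snoRNA gene F17C11.24, and its summit was 79 bp upstream of the latter. The site also lies in the upstream window of F17C11.11, on the other strand, whose 5′ end is 1891 bp away. Which of these genes the site serves was not tested.

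zip-1 and zip-11 complete the group with peaks. The zip-1 entry (chrIII:12335466-12335805) had a signal of 63.9 at rank 942, with ranks 970 and 678, and its replicate summits were 71 bp and 12 bp from the pooled one. A further 3 weak pooled entries lay in zip-1, at ranks 9504 to 13136, and none of these overlapped an entry of replicate 2. The zip-11 entry (chrIV:3311254-3311593) had a signal of 42.9 at rank 1860, close to the lowest signal of the IDR list, 42.5. It ranked 1905 in replicate 1 and 2832 in replicate 2, with its summit in the 5′ UTR, 148 bp inside the gene. Taking as many top entries of one replicate as the IDR list holds, zip-11 fell outside in each.

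**Figure D3:**
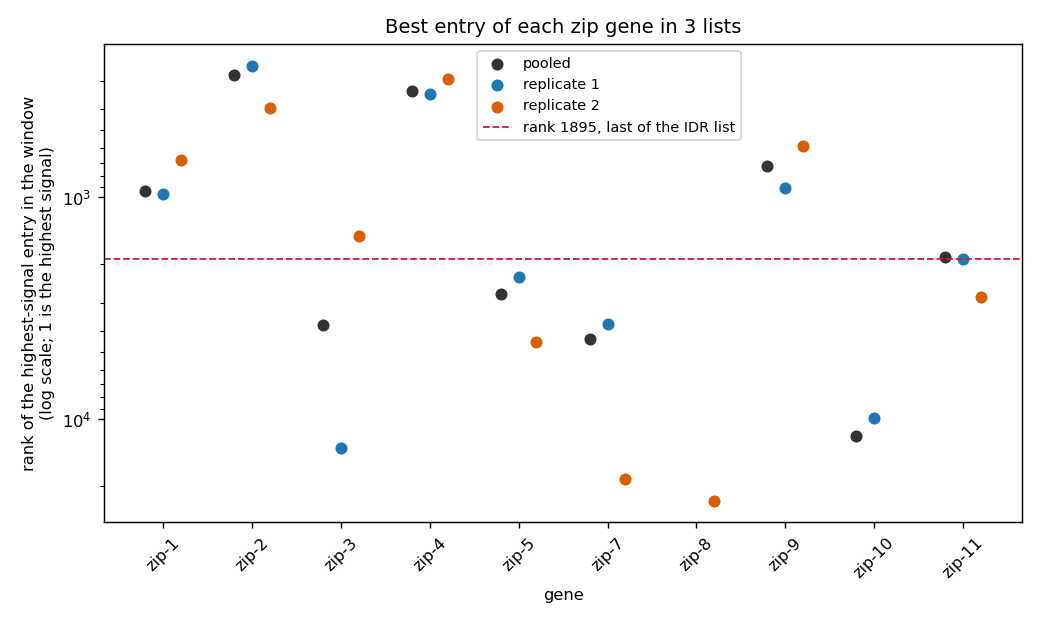
Rank of the best entry in each zip gene's window (y, log scale, 1 at the top) in the pooled, replicate 1 and replicate 2 lists. The dashed line is rank 1895: zip-1, zip-2, zip-4 and zip-9 lie above it in all 3 lists, zip-11 in the pooled list alone and zip-3 in replicate 2 alone.

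Among the genes without an IDR peak, zip-5 came nearest to the list. Its best pooled entry, in an intron 4971 bp past the 5′ end, had a signal of 33.7 at rank 2725. The overlapping entry ranked 2292 in replicate 1 and 6383 in replicate 2. All 4 pooled entries of zip-5 lay inside the gene and each overlapped an entry in both replicates, although neighbouring entries at ranks 2725 and 11902 overlapped the same ones. The replicate 2 entry that ranked highest, at 4517, was at another of these sites, 3354 bp past the 5′ end.

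zip-3 differed between the replicates. In replicate 2 an intron entry 3109 bp past the 5′ end had a signal of 19.3 at rank 1502, which would place it among as many top entries as the IDR list holds. Replicate 1 listed no entry overlapping the pooled one there, whose signal was 27.6 at rank 3766. The best entry of replicate 1 was upstream of the gene, with a signal of 10.04 at rank 13577. The pooled intron entry is the AT-rich stretch printed above, whose longest run of A or of T is 7 bases. Whether base composition bears on the difference was not tested.

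zip-7, zip-8 and zip-10 were listed weakly or not at all. The best pooled entry of zip-7 was intronic, with a signal of 25.4 at rank 4384, and it overlapped an entry at rank 3731 in replicate 1 and none in replicate 2. zip-10 had 1 pooled entry, 146 bp upstream of the gene, with a signal of 16.02 at rank 11894, and replicate 2 listed none in its window. The entry held GGGCGG in 2 places, and 7.83% of all promoters of 300 bases hold it. zip-8 was the member with no pooled entry, against 53.5% of all genes with one. Its single entry, in replicate 2, had a signal of 5.89 at rank 23389 of 23483. Replicate 1 listed an entry in 9 of the 10 windows, against 64.6% of all genes, and replicate 2 in 9, against 61.1%.

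Entries just outside the windows include IDR peaks at 2 genes. Past zip-7, 839 bp beyond its 3′ end, lay a peak (chrIV:16501901-16502240) with a signal of 70.9 at rank 758, and ranks 1172 and 589 in the replicates. This peak is the zip-7 stretch printed above. The nearest protein-coding 5′ end to it is that of zip-7 itself, 3611 bp away, and the next gene on the other side, rho-1, is 13050 bp away. Past zip-2, 179 bp beyond its 3′ end, a peak in a coding exon of dos-3 (chrIII:835823-836162) had a signal of 43.6 at rank 1827. On the upstream side, the nearest pooled entries outside were at zip-9, 2429 bp upstream at rank 11909, and at zip-1, 2540 bp upstream at rank 5486. The latter lies in an intron of the neighbouring zip-12.

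Across the 10 windows the pooled list had 23 entries and each replicate list 21. Of the 23, 13 overlapped an entry in both replicates, 8 in replicate 1 alone and 2 in replicate 2 alone. Over the whole pooled list, 51.0% of entries overlapped one in both. Pooled entries outside the IDR list numbered 0 to 3 in genes with an IDR peak (median 1) and 0 to 4 in genes without (median 2), against a median of 0 over all genes. All pooled entries per kb of window, IDR peaks included, were at a median of 0.430 with a peak and 0.397 without, against 0.134 over all genes. Gene length overlapped as well, from 1914 to 11640 bp with a peak and from 684 to 5554 bp without, with medians of 2652 and 2773 bp. GC content of the window ran from 36.2 to 39.8% with a peak and from 31.9 to 38.2% without, with medians of 37.8 and 35.5%. GC content of the promoter stretch defined below went the other way, with medians of 35% with a peak and 38% without. It ran from 27.7 to 39.7% and from 29 to 49%. The gap to the next upstream gene that did not overlap had medians of 1469 bp with a peak and 3708 bp without. Its ranges overlapped, at 331 to 3712 bp and 889 to 10786 bp. Genes with a peak had 1 to 5 distinct annotated transcript starts and those without 1 to 3. With 5 genes on each side these are descriptions, with no test.

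In the promoter stretch from 250 bases upstream to 50 downstream of the 5′ end, TGACTCA was found in none of the 10 zip genes and in 3.62% of all promoters. TCACTGA was found at zip-3 and in 4.999% of all promoters. TTACGTAA was found at zip-8 and in 0.335% of all promoters. GGGCGG was found at zip-8 and zip-10 and in 7.83% of all promoters. The GAGAGAG repeat was in none, against 6.78% of all promoters. Inside pooled entries, TGACTCA was found at zip-5, centred 105 bp from the summit of the entry ranked 5065. TGACGTCA was found at zip-7, centred 44.5 bp from the summit ranked 4384. The scrambled TCACTGA was inside entries of zip-3 (rank 6063) and zip-5 (rank 2725), each centred 128 bp from the summit. GGGCGG was inside entries of zip-1, zip-5, zip-7, zip-10 and zip-11, and CACGTG inside an entry of zip-1. The share of all pooled entries with each motif was not computed. None of these matches was within an IDR peak.

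A list of other bZIP genes, also chosen with earlier results known, gave a like share. Of 20 other bZIP genes found in the annotation, 10 (50%) held an IDR summit in the same window, and 11.3% of all genes did. These were jun-1, cebp-1, cebp-2, xbp-1, atf-4, atfs-1, crh-1, crh-2, let-607 and skn-1. The 10 without were fos-1 itself, atf-2, atf-6, atf-7, atf-8, ces-2, sknr-1, maf-1, zip-6 and zip-12. In windows over 10000 bp, 21.0% of all genes held an IDR summit. Such windows belonged to jun-1, let-607, skn-1, crh-1 and crh-2, and to fos-1 among those without. Best pooled ranks in the group with peaks ran from 2 at cebp-1 and 8 at jun-1, the partner gene of fos-1, to 1497 at atfs-1. The best zip peaks ranked from 282 to 1860. The CREB-type gene let-607, at rank 291, and skn-1, the worm Nrf gene, at rank 984, had their best peak in an intron, as did crh-2 at rank 1085. Those of jun-1, cebp-1, cebp-2, xbp-1, atf-4, atfs-1 and crh-1 were intergenic, 26 to 742 bp upstream of the gene.

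Genes known to act with, upstream of or downstream of the zip factors were also looked up. Of 13, 6 (46.2%) held an IDR summit, against 11.3% of all genes: cebp-1, cebp-2, atfs-1, hsp-6, hsp-60 and isy-1. The C/EBP-type genes cebp-1 and cebp-2, linked with zip-2 and zip-4, had ranks of 2 and 897. The mitochondrial chaperone genes hsp-6 and hsp-60, targets of the response that ZIP-3 restrains, had a signal of 45.2 at rank 1718 and of 156 at rank 140. isy-1, which restrains zip-10, had rank 934 although zip-10 itself had no IDR peak. The effector genes irg-1 and irg-2 of zip-2, pals-5 of the intracellular pathogen response and its regulators pals-22 and pals-25, and asp-17 and cpl-1 of zip-10 held none. Of these 7, irg-1, pals-5, pals-25 and asp-17 had no pooled entry either, and 53.5% of all genes had one. In replicate 1 alone, pals-25 and asp-17 were listed weakly, at best ranks 29134 and 29550. Since cebp-1, cebp-2 and atfs-1 belong to both lists, the counts are not independent.

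Genes whose best entries ranked most like those of zip-2 were found by the Euclidean distance of log2 ranks in the pooled and both replicate lists. ceeh-1 was at distance 0, because its best entry is the zip-2 peak itself. Next were F54D5.9, dhgd-1 and dnj-13, which share an entry ranked 286, 265 and 415 in those lists, at a distance of 0.0836.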

How the data were processed

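FOS-1 ChIP-seq was represented by narrowPeak lists of build ce11: 1 for each of 2 replicates, a pooled list and an IDR list. Per the deposited text files, replicate lists came from the alignments of 1 replicate set against a control, the pooled list from both replicates and that control, and the IDR list from these. The sources used here name no aligner, peak caller or threshold. The signal of each entry (column 7) and its −log10 q-value (column 9, tied at 3.63 in all 1895 IDR peaks) are the authors' deposited values. Lists differ in scale (median signal 17.1 pooled, 9.60 and 8.00 in the replicates), so they were compared by rank and overlap of at least 1 bp. The ce10 lists were not used here.

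Genes came from Ensembl release 115 (WBcel235) and bases from the RefSeq copy of that assembly; no ce11 entry ended past its chromosome (0 entries). A summit was column 2 plus column 10. Counts of windows were tested on planted entries and against bedtools 2.31.1. Scripts ran in Python 3.11.15 with pandas 2.3.3, numpy 2.4.6, matplotlib 3.10.9 and, for intervals, scipy 1.17.1. Members and lists were chosen with earlier results of these data known, and 1 symbol of the bZIP list was not found and was left out. Named genes were all members, list genes with an IDR summit, the nearest gene of each member peak and the genes most like the strongest member; other genes were named after their values were seen. No test was made, since 1 group of 2 replicates allows none. Alternatives changed the window, the placing of entries, the list and the motif distance.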

Additional observations from a re-analysis of the deposited data

How the results depend on the processing

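With the promoter window alone (1000 bp upstream to 200 bp downstream of the gene's 5′ end), 2 members held an IDR summit. These were zip-4 and zip-11, against 1529 of all genes (7.65%). In that window 5 members held a pooled entry, with no share of all genes computed beside it. Around any annotated transcript start, an alternative chosen after seeing the data, 4 members held an IDR summit, against 1622 genes (8.12%). Under every other alternative run, 4 or 5 members held one, with zip-1, zip-2 and zip-4 in each; zip-9 was lost with 500 bp upstream or nearest genes, and zip-11 in the upper part of the IDR list. The background fell to 1432 genes with nearest genes and to 1231 in the upper part of the IDR list by signal, where other bZIP genes fell to 5. Each replicate alone gave 4 to 5 members (zip-3 in place of zip-11 in replicate 2) and 2200 to 2201 genes. Counts were 8 to 11 for other bZIP genes and 4 to 5 for genes linked with the zip factors. In each replicate list 9 members had an entry. Motif counts were 2 members within 25 bp, 100 bp and the whole interval. Of 48 recomputed rank percentiles of the members' best entries, 29 were identical to the reported pooled value, all under another window or placing. Those for 1 replicate alone were percentiles in that replicate's own, longer list, so they are not of like lists. Of the 48, 9 moved by more than 1 SD of the 2 replicates or, for zip-10, had no SD to set them against. The cause of these changes was not tested. Depth is unknown, so unlisted weak sites cannot be judged. No paired analysis was possible because both samples belong to 1 group.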
